A study of Mus musculus with 20 samples.

Results

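H3K27me3 was compared between wild-type (WT) and Jmjd3 knockout (KO) cells at day 10 of reprogramming, in the absence of exogenous JMJD3. The members are the peaks of the 2 lists that GEO labels as day 10 cells with FLAG overexpression, 5131 in Jmjd3+/+ and 5376 in Jmjd3-/- cells, together 10507 of the 53171 peaks in the 10 H3K27me3 lists of the series. A peak counted as shared when at least 1 bp of it was covered by a peak of the other genotype, and otherwise as WT-only or KO-only. These names describe calls in 2 lists and not the presence or absence of the mark.

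Chromatin immunoprecipitation followed by sequencing (ChIP-seq) was performed on mouse embryonic fibroblasts (MEFs) and on MEFs on their way to induced pluripotent stem cells. Both day 10 groups were MEFs transduced with viruses for OCT4, SOX2, KLF4 and c-MYC (OSKM), kept in medium with Vitamin C, and given the FLAG vector that served as the control for exogenous JMJD3. According to the labels the WT cells were of the strain C57BL/6J-OG2 and the KO cells of C57Bl6J, so by the labels genotype and strain cannot be told apart. The paper speaks of littermates for some of its reprogramming work, and whether that holds for these libraries was not settled here. The other H3K27me3 lists, of the same strains, came from untreated MEFs of each genotype (day 0), from OSKM cells with FLAG at day 5, and from OSKM cells with exogenous JMJD3 at day 5 and day 10. Each group was 1 library of a mixed culture in which reprogrammed and unreprogrammed cells are not separated, no difference has a replicate check, and the read depth behind the lists was not used here.

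H3K27me3, trimethylation of lysine 27 of histone H3, is deposited by Polycomb repressive complex 2 and marks silent developmental genes, most of all at CpG-rich promoters. JMJD3 (KDM6B) and UTX (KDM6A) are the enzymes that remove it. In fibroblasts the mark covers many epithelial and pluripotency genes, and during reprogramming genes of the fibroblast are shut down. According to the paper, activation of such genes goes with loss of the mark at part of them, but not at all.

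The sequences below are the central parts of peaks from the 3 classes. They are 200 bp each, read 5′ to 3′ on the plus strand of GRCm38 (mm10), with each CpG in capitals. The first pair are the best-scoring WT-only peaks near genes without a KO peak within 10 kb. The peaks lay in introns of Bicdl1 (chr5:115730684-115730883), an adaptor of dynein transport, and of Irf5 (chr6:29527413-29527612), a transcription factor of the interferon response.
Bicdl1: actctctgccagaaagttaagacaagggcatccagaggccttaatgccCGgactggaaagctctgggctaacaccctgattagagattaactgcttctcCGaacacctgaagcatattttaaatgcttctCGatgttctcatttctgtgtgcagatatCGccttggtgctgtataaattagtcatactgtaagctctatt
Irf5: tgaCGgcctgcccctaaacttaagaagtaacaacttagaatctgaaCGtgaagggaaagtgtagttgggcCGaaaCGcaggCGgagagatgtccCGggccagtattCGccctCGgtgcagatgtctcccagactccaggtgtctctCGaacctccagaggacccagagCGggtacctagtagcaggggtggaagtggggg
The second pair are the best-scoring KO-only peaks by the same rule, in introns of the homeobox gene Dlx3 (chr11:95121483-95121682) and of Hlf (chr11:90389433-90389632), a bZIP transcription factor of blood stem cells and the liver.
Dlx3: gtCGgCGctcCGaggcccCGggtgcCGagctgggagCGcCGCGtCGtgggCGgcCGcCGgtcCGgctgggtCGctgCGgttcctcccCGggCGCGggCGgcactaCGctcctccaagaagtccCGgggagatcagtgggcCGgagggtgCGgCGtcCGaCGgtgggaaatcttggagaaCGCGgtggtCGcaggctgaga
Hlf: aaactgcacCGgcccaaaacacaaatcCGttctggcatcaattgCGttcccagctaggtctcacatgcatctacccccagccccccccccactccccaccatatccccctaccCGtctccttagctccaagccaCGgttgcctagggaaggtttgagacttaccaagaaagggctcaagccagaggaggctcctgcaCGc
The third pair are shared peaks. The first is an intronic one of Aida (chr1:183299265-183299464), the best-ranked one outside repeats. The second lies in the coding sequence of the zinc-finger gene Egr4 (chr6:85512463-85512662) and was picked after its values were seen. The Aida peak also had the highest score of 200 in both MEF lists. Its observed to expected CpG ratio was 0.182, against a median of 0.545 for the shared peaks of the WT list. Whether the Aida peak reflects the mark was not tested.
Aida: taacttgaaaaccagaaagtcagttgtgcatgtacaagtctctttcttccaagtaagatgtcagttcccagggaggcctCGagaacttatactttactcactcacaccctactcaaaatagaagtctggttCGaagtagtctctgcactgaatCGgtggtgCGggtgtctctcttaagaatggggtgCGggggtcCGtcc
Egr4: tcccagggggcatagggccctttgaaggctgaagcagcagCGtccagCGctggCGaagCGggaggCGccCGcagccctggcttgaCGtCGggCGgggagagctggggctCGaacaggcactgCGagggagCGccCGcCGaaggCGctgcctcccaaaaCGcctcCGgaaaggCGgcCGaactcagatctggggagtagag
The last 3 sequences, also picked after their values were seen, are KO-only peaks upstream of transcription factor genes of mesenchymal cells, Osr2 (chr15:35294986-35295185), Twist1 (chr12:33956146-33956345) and Snai1 (chr2:167537926-167538125).
Osr2: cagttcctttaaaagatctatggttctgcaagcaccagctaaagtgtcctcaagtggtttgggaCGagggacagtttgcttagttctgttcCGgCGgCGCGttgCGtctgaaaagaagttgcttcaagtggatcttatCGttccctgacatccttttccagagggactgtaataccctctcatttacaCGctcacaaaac
Twist1: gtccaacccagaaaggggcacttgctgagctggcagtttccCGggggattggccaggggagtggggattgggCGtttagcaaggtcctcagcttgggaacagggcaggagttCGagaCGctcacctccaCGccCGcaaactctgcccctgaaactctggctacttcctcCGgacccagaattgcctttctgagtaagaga
Snai1: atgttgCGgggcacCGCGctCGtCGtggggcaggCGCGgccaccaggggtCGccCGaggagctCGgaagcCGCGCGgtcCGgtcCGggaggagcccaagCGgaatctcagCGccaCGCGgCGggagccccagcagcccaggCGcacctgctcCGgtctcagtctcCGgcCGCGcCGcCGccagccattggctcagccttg
The number of CpGs in these windows was 4 for Bicdl1 and 10 for Irf5 among the WT-only peaks, and 29 for Dlx3 and 6 for Hlf among the KO-only ones. It was 6 for Aida, 19 for Egr4, 8 for Osr2, 7 for Twist1 and 27 for Snai1. CpG-rich and CpG-poor windows thus occurred among both the KO-only and the shared ones shown, the CpG-poor shared one being that of Aida.

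The labels of the lists were checked against the peaks, at Kdm6a after its peaks had been seen. Kdm6b (chromosome 11, 69398508 to 69413675, minus strand), the gene of JMJD3, had no peak in either list, so the knockout could not be checked. Kdm6a (chromosome X, 18162575 to 18279936, plus strand), the gene of UTX, had 8 peaks in the WT list and 0 in each of the other 9 H3K27me3 lists. All 8 overlapped exons of Kdm6a, between 18257475 and 18278874, a stretch in which 49.4% of 1 kb windows overlap an exon. Their scores ranged from 7.62 to 19.24. Kdm6a was the only protein-coding gene with 4 or more peaks in its body in the day 10 WT list and none in the KO list. The study also made a vector with FLAG-tagged Utx, whereas the labels give this library the FLAG control. Whether the reads came from the chromosomal exons or from a copy of the cDNA cannot be told apart in peak lists. Whether the library came from the FLAG control cells was not tested either. WT stands below for the library labelled so, and every comparison of the genotypes at day 10 with FLAG rests on that label.

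The first question was how far the mark occupied the same places in the 2 genotypes. Of the WT peaks, 3108 (60.6%, 95% Wilson interval 59.2 to 61.9) were shared and 2023 (39.4%) were WT-only. Of the KO peaks, 3099 (57.6%, 56.3 to 59.0) were shared and 2277 (42.4%) were KO-only. The lists were of similar length, with a KO to WT ratio of 1.05 (95% Poisson interval 1.01 to 1.09), so the unshared peaks were spread over both genotypes. All peaks were 1000 bp wide. Where peaks were shared, their midpoints lay a median of 213 bp apart.

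What separated shared from unshared peaks in both genotypes was the score that the peak caller gave them. The score is a value on a scale not given in the sources used here, and it was used to rank peaks within a list. Where scores of different lists stand side by side below, they are printed as deposited, without a stated common scale. Its median was 8.16 for WT-only and 8.22 for KO-only peaks, against 14.0 and 15.0 for shared peaks in the WT and KO lists. A score of at least 20 was reached by 40 WT-only (1.98%) and 57 KO-only peaks (2.50%), and by 963 (31.0%) and 1049 (33.8%) of the shared peaks. Few strong peaks were therefore called in 1 genotype alone.

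The same held across the whole range of scores. In the best-scoring quartile, 93.9% (92.5 to 95.1) of WT peaks overlapped a KO peak, followed by 72.1%, 45.4% and 30.9% (28.5 to 33.5) in the lower quartiles. The KO list gave 93.2% (91.8 to 94.5), 68.8%, 42.0% and 26.6% (24.3 to 29.0). Of the 500 best peaks of each list, 98.0% of the WT and 97.2% of the KO peaks were found somewhere in the other list, although 54.0% (49.6 to 58.3) were among the best 500 there. Over the shared pairs the scores had a Spearman correlation of 0.57 (3108 pairs from 2 libraries, given as a description).

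**Figure D1:**
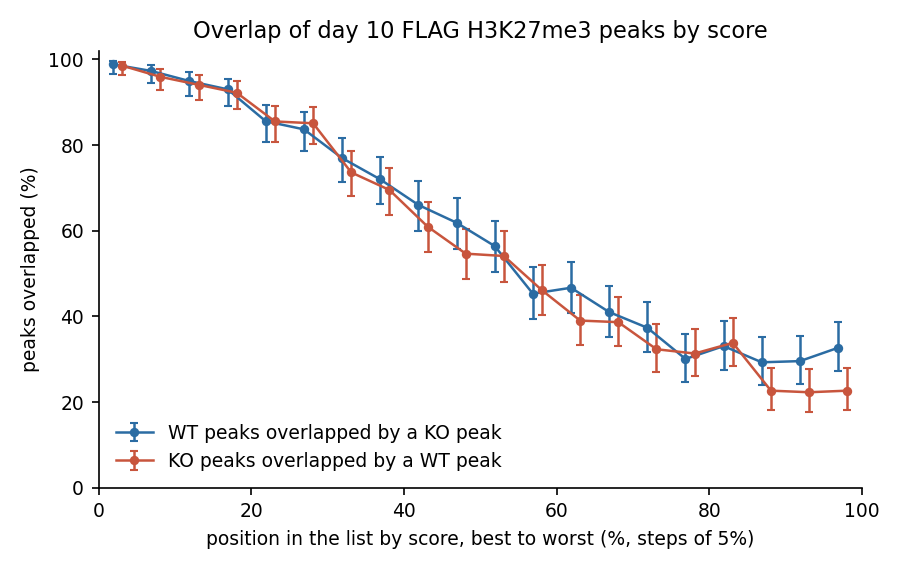
Share of day 10 FLAG H3K27me3 peaks overlapped by a peak of the other genotype (y axis, %), in steps of 5% of each list from the best to the worst score (x axis). Blue points are WT peaks, red points KO peaks, and bars are 95% Wilson intervals, which cover counting error only. Both curves start near 98.8% and 98.5% and end at 32.7% and 22.7%.

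The overlap was also taken at equal list lengths by score, where it ran from 54.0% for the best 500 to 66.0% for the best 2000. With 5131 peaks in each, 59.9% (58.5 to 61.2) of WT peaks overlapped a KO peak and 59.3% (57.9 to 60.6) of KO peaks a WT peak. The interval for the best 2000 was 63.9 to 68.0. At the length of the shortest of the 10 lists, 65.5% (63.8 to 67.2) of the best 3045 WT peaks overlapped one of the best 3045 KO peaks. At that length the best WT peaks overlapped the day 5 WT FLAG list in 67.4% (65.7 to 69.0) and the day 5 KO FLAG list in 63.8% (62.1 to 65.5). The best 3045 KO peaks overlapped the day 5 WT FLAG list in 69.6% (67.9 to 71.2) and the day 5 KO FLAG list in 67.4% (65.7 to 69.1). The day 10 KO list thus overlapped the day 5 WT FLAG list more than the day 10 WT list, and these 2 intervals did not overlap. At the same length the genotypes overlapped in 77.6% at day 5 with FLAG, 74.2% at day 5 with JMJD3, 68.2% in MEFs and 60.4% at day 10 with JMJD3.

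The distance from each unshared peak to the nearest peak of the other genotype was measured. Of the WT-only peaks, 18.3% (16.7 to 20.0) lay within 5 kb of a KO peak and the median distance was 35361 bp. The KO-only peaks lay within 5 kb of a WT peak in 16.6% (15.1 to 18.1) and at a median of 40048 bp. Within 50 kb lay 55.7% of WT-only and 54.1% of KO-only peaks. When peaks of a list within 5 kb were joined into domains, 62.5% (61.1 to 63.9) of the 4661 WT domains were overlapped. The single best-scoring unshared peak of each genotype lay close to one of the other. At Col13a1, a collagen gene, a WT-only peak of score 57.82 (rank 69) lay 127 bp from a KO peak, and at Lingo1, an inhibitor of myelination, a KO-only peak of 55.52 (rank 92) lay 351 bp from a WT peak. Among domains of 4 or more peaks, 14 of 15 in WT and 18 of 18 in KO cells overlapped a domain of the other genotype, against 61.0% and 58.5% of those with a single peak, although a longer domain can more easily be overlapped. With peaks joined within 1 kb, 54.1% (45.7 to 62.3) of the WT domains of 2 to 3 peaks were overlapped, and 46.4% (38.6 to 54.3) of the KO ones, against 61.2% and 58.7% of single peaks.

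The classes differed in sequence and position, which the overlap rule did not use. Within 1 kb of a transcription start site (TSS) lay 22.7% (20.9 to 24.6) of WT-only and 24.0% (22.3 to 25.8) of KO-only peaks, against 51.8% (50.0 to 53.6) of shared peaks and 4.37% of the genome. Intergenic midpoints made up 40.7% of WT-only, 42.5% of KO-only and 23.8% of shared peaks. A peak was called CpG island-like when its GC content was at least 50% and its observed to expected CpG ratio at least 0.6. This held for 11.1% (9.78 to 12.5) of WT-only, 11.3% (10.1 to 12.7) of KO-only and 40.0% (38.3 to 41.8) of shared peaks. Of the 1 kb windows at protein-coding TSSs 46.0% were island-like, and of the whole genome 0.614%. Over the whole lists the intervals of WT-only and KO-only peaks thus overlapped in both measures, and those of the shared peaks lay apart.

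Score moved with this difference as well. In the WT list the island-like share of shared peaks went from 56.1% in the best to 22.9% in the lowest quartile of score, and that of WT-only peaks from 26.9% (18.3 to 37.7) to 7.23%. In the best quartile of the WT list the interval of the 78 WT-only peaks lay below that of shared peaks (53.3 to 58.9). In the best quartile of the KO list 46.2% (36.3 to 56.3) of 91 KO-only and 56.8% (54.1 to 59.5) of shared peaks were island-like, with overlapping intervals. Between the WT-only and KO-only peaks of the best quartiles, 26.9% and 46.2%, the intervals overlapped by little. Overlap of intervals does not decide whether such shares differ, and these differences were not computed. By chromosome, the KO to WT ratio of peak numbers ran from 0.98 to 1.25 on autosomes, the highest on chromosome 14 with 142 WT and 178 KO peaks. The X chromosome had 30 WT peaks, of which 8 were those on Kdm6a, and 25 KO peaks.

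Whether the unshared peaks recurred in other libraries of the series was asked next, because those libraries played no part in defining the classes. Shared peaks were called in 86.9% of cases in the day 5 WT FLAG list and 73.8% in the WT MEF list, and 3.31% of them were in none of the other 8 lists. Of the WT-only peaks 39.5% (37.4 to 41.6), and of the KO-only peaks 33.2% (31.3 to 35.1), were in none of the other 8. The rest had been called at another stage or with JMJD3. Pooled over the other lists of each genotype the shares were close, while within single pairs of lists they differed, as given below. WT-only peaks were called in a KO list of another stage or vector in 50.9% (48.7 to 53.0) and in such a WT list in 50.7% (48.5 to 52.8). KO-only peaks were called in another KO list in 56.7% (54.6 to 58.7) and in another WT list in 55.3% (53.3 to 57.4).

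**Figure D2:**
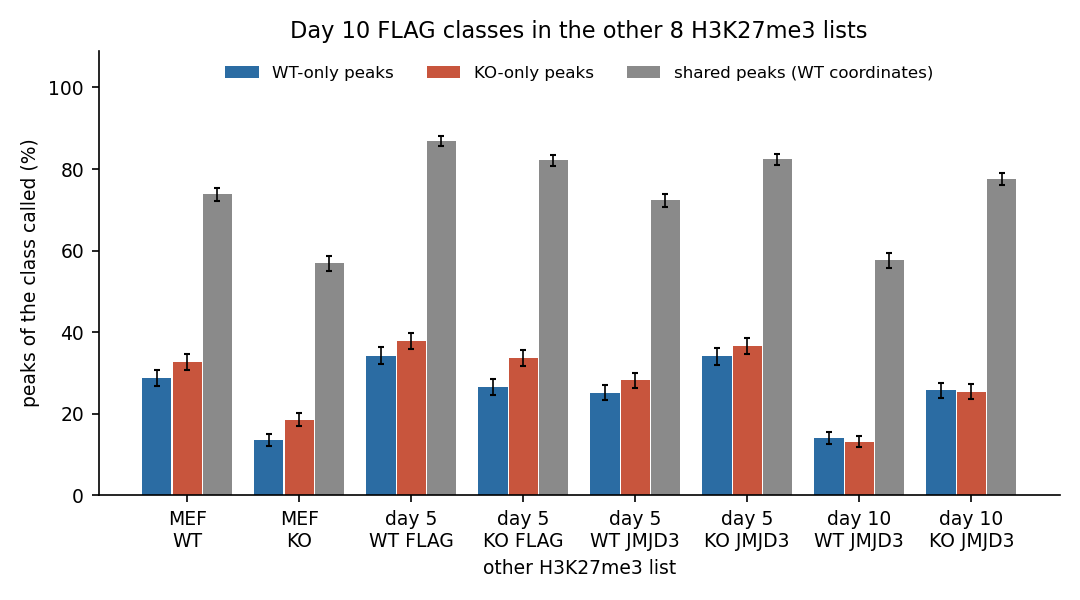
Share of WT-only (blue), KO-only (red) and shared (grey) day 10 FLAG peaks that overlapped a peak of each of the other 8 H3K27me3 lists (x axis; y axis in %, bars with 95% Wilson intervals for counting error). Grey bars run from 56.9% to 86.9% and are the highest in every list. The blue and red bars lie within 7.28 points of each other throughout.

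The lists differ in length, which limits how many peaks can recur, and its part in the shares was not tested. In WT MEFs, the longest list, 28.7% (26.8 to 30.7) of WT-only and 32.7% of KO-only peaks were called, while KO MEFs had 13.4% and 18.5%. With JMJD3 at day 10 the order turned, with 14.0% and 13.1% in the WT list of 3045 peaks and 25.7% and 25.4% in the KO list of 4878 peaks. To set list length aside, peaks called in exactly 1 genotype of another pair were counted, and the share called in WT was compared between the classes. It was 68.0% for WT-only and 59.2% for KO-only peaks at day 5 with FLAG, a difference of 8.78 points (95% Newcombe interval 2.63 to 14.8). The differences were 2.83 points (-1.81 to 7.39) in MEFs, -3.48 points (-9.22 to 2.36) at day 5 with JMJD3 and 0.353 points (-4.96 to 5.73) at day 10 with JMJD3. A tendency to the same genotype was thus larger than its counting interval in 1 of 4 other pairs. Only 1 WT-only and 1 KO-only peak kept its genotype in all 4 other pairs. The opposite genotype in all 4 was found for 1 WT-only and 0 KO-only peaks.

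KLF4 binding at day 5 in WT cells was laid over the classes, and FLAG-JMJD3 binding at day 5 in cells whose titles name no genotype. KLF4 is a factor of the OSKM cocktail, and the study asked whether it directs JMJD3. KLF4 peaks of cells with exogenous JMJD3 overlapped 48 WT-only (2.37%, 1.79 to 3.13) and 56 KO-only peaks (2.46%), a difference of -0.0867 points (-1.01 to 0.857). They overlapped 174 shared peaks (5.60%, 4.84 to 6.46), 3.23 points (2.16 to 4.27) more than WT-only ones. KLF4 peaks of FLAG cells overlapped 1.29% of WT-only, 1.41% of KO-only and 3.02% of shared peaks. The order of shared and unshared peaks did not hold at every score. In the best quartile of the KO list, KLF4 peaks of cells with exogenous JMJD3 overlapped 10 of 91 KO-only (10.99%, 6.08 to 19.1) and 95 of 1253 shared peaks (7.58%, 6.24 to 9.18). Those of FLAG cells overlapped 7.69% (3.78 to 15.0) and 3.51% (2.63 to 4.68). In both cases the intervals overlapped, which does not decide the difference, and the differences within this quartile were not computed. FLAG-JMJD3 positions of OSKM cells overlapped 14 WT-only, 10 KO-only and 23 shared peaks of the WT list. Those of cells with low KLF4 overlapped 3, 0 and 7. The difference between WT-only and KO-only peaks was not computed for these few positions.

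Peaks were then assigned to genes. The nearest protein-coding genes numbered 1548 for WT-only and 1729 for KO-only peaks. Of the WT-only peaks 42.2% (40.1 to 44.4), and of the KO-only peaks 40.0% (38.0 to 42.0), had a nearest gene that was also nearest to a shared peak. After Kdm6a with 8, the largest number of WT-only peaks was near Irx5, a homeobox gene of heart and limb, with 7, beside 1 KO-only and 1 shared peak. The KO-only peaks were most numerous near Otx2, a homeobox gene of the forebrain, with 7, beside 4 WT-only peaks near the same gene. Irx3, a neighbour of Irx5, had 6 KO-only and 4 WT-only peaks. Pax2, needed in kidney and eye, had 11 shared peaks beside 2 WT-only and 3 KO-only ones. Homeobox genes thus carried unshared peaks of both genotypes.

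Of 21951 protein-coding genes, 2171 (9.89%) had a peak within 5 kb of a TSS in both genotypes, 489 (2.23%) in the WT list alone and 635 (2.89%) in the KO list alone. The genes with the best-ranked peaks in both lists include Egr4, an immediate early gene of neurons, with scores of 99.85 in WT and 126.25 in KO cells. Fgf11, an intracellular fibroblast growth factor homologue, had 78.81 and 77.68. Insm2, a zinc-finger gene of neuroendocrine cells, had 78.73 and 79.48. These peaks were called in all 10 H3K27me3 lists. A peak with the highest score of 200 in both lists lay at the predicted genes Gm10800 and Gm10801 in sequence that is mostly repeat-masked.

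Genes with a strong peak in 1 genotype alone were few and in most cases marked in other libraries of both genotypes. Bicdl1 had the best WT-only peak by the rule above, at score 49.83 and rank 104, and a peak in 9 of the 10 lists, the missing one being day 10 KO FLAG. Irf5 scored 32.26 (rank 363), and was likewise called in all lists but that one, with day 5 FLAG scores of 79.08 in WT and 50.25 in KO cells. Gad2, which makes the transmitter GABA, scored 31.33 and was also called in 9 lists. Chrna7, a nicotinic acetylcholine receptor subunit, had 31.07 and was called in 5 lists. The next genes were Rasal1, Brinp1, Shc2, Kndc1, Chst1 and Dmrt3, down to a score of 24.95.

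On the KO side, Dlx3, a homeobox gene of skin and placenta, scored 37.87 (rank 272), and it was called in all lists but day 10 WT FLAG. Hlf scored 36.7 (rank 298) and was called in 7 lists. Has3, a hyaluronan synthase, scored 33.3, and Irf4, a transcription factor of lymphocytes, 27.6. Scn4b, a sodium channel subunit, had 26.63. The others were Lypd6b, Jph4, Mapk13, Dab1 and Gpr83. No gene had a peak in the same genotype alone in all 5 pairs of libraries. Rfk came closest on the WT side, being called in WT alone in 3 of the other 4 pairs, at a score of 6.65 at day 10. On the KO side Cd40, Pdlim3, Acer2, Slc4a5 and Asb4 were among the 8 genes that did so. Calls in the opposite genotype alone in 3 of the other 4 pairs were found for 2 WT-only and 3 KO-only genes.

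At the level of genes the other libraries showed the pattern seen for peaks. Of the 489 genes marked in WT alone, 110 were marked in WT alone and 9 in KO alone in MEFs, but 31 and 119 at day 10 with JMJD3. Of the 635 genes marked in KO alone, 135 were marked in WT alone and 20 in KO alone in MEFs, and 37 and 161 at day 10 with JMJD3. Both sets of genes were thus more often marked in the genotype with the longer list of each pair.

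**Figure D3:**
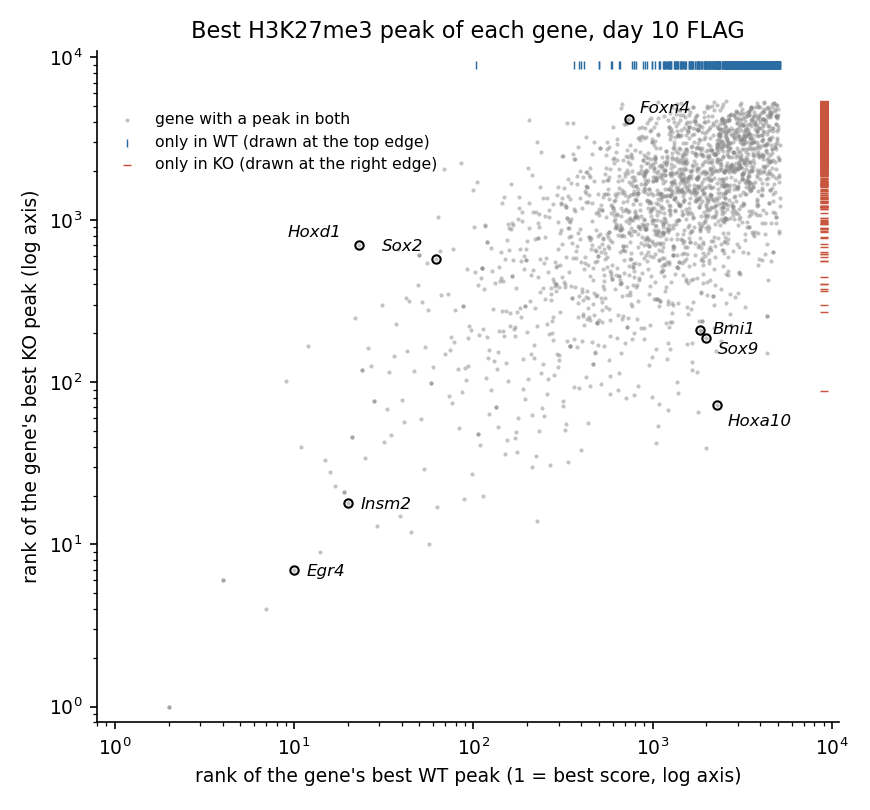
Rank of the best peak no more than 5 kb from a TSS in the day 10 WT (x axis) and KO (y axis) FLAG lists for each protein-coding gene, on log axes with 1 as the best score. Grey points are the 2171 genes with a peak in both, and ticks along the top and right edges are the 489 and 635 genes with a peak in WT or KO alone. The ticks lie mostly at ranks beyond 1000, and named genes such as Hoxa10 and Hoxd1 lie far from the diagonal.

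Lists of developmental and cell type genes were then counted, 18 lists with 625 genes, which were chosen with earlier results of these data known. They are described by counts beside the shares of all genes above. Developmental transcription factor genes were mostly marked in both genotypes. Of the 39 Hox genes, which set position along the body axis, 29 had a peak in both genotypes, 4 in WT alone, 5 in KO alone and 1 in neither. Of 97 other homeobox genes 76 had a peak in both, 11 in WT alone and 5 in KO alone. GATA genes were marked in both in 5 of 6 cases, forkhead genes in 22 of 28 and Sox genes in 9 of 13, and none of these 3 lists had a gene with a KO peak alone.

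**Figure D4:**
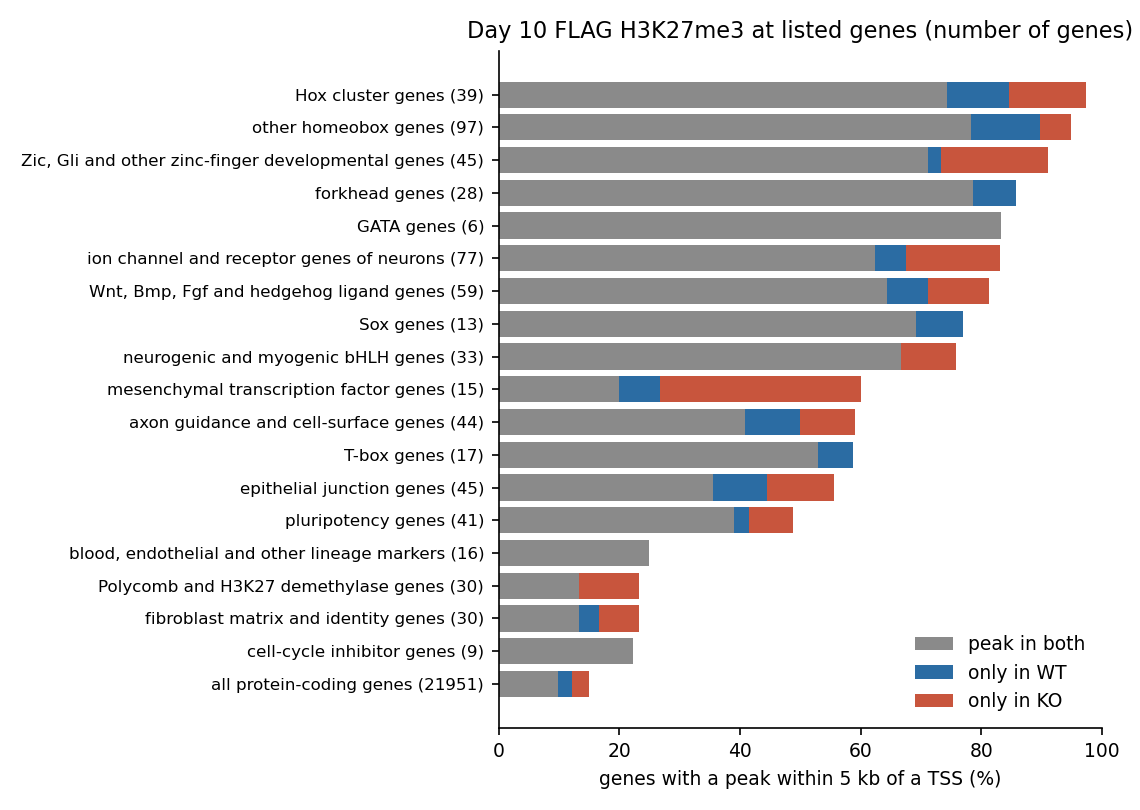
Share of the genes of each list (x axis, %) with a day 10 FLAG H3K27me3 peak up to 5 kb from a TSS in both genotypes (grey), in WT alone (blue) or in KO alone (red), with the number of genes in brackets on the y axis. The lists are ordered by the total share, and all 21951 protein-coding genes are shown with 9.89%, 2.23% and 2.89%.

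The Hox clusters carried peaks in both genotypes, at partly different places. The Hoxa cluster held 8 WT and 9 KO peaks, of which 4 overlapped. Hoxb held 13 and 18, Hoxc 14 and 12, and Hoxd 9 and 10, with 12, 9 and 7 of the WT peaks overlapped. Hoxa2, Hoxa11, Hoxc6 and Hoxc10 had a WT peak alone, and Hoxa7, Hoxc12, Hoxd3 and Hoxd4 were among those with a KO peak alone. All these genes lie in clusters marked in both genotypes, and within 10 kb of a TSS 37 of the 39 had a peak in both.

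Some Hox genes with a peak in both lists stood at different ranks. Hoxa10, which patterns limbs and the reproductive tract, scored 11.48 (rank 2286) in WT and 60.2 (rank 72) in KO cells. Hoxd1, active in sensory neurons, scored 76.51 (rank 23) in WT and 25.45 (rank 699) in KO cells. Sox9, a regulator of cartilage, scored 12.7 in WT and 43.09 in KO cells. Conversely Foxn4, a regulator of retinal progenitors, had 23.38 and 7.68. With 1 library each, such shifts have no replicate check.

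The homeobox genes with a WT peak alone were Alx1, Alx4, Cdx4, Dlx2, Emx2, Irx2, Irx5, Isl1, Onecut2, Otx1 and Pdx1. Irx5 had the highest score of them, at 21.2, followed by Pdx1, a master gene of the pancreas, at 20.76. Their number depended on the window, as 5 instead of 11 remained within 10 kb of a TSS. Dlx1, Dlx3, Pax9 and Vax2 were among those with a KO peak alone, with Vax2, a gene of the ventral eye, at 22.65.

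Epithelial and mesenchymal genes were examined since fibroblasts have to pass from a mesenchymal to an epithelial state. Of 45 epithelial junction genes, 16 had a peak in both genotypes, 4 in WT alone, 5 in KO alone and 20 in neither. Across stages the number of marked genes was 27 in WT and 25 in KO MEFs, 23 and 24 at day 5 with FLAG, and 20 and 21 at day 10. With exogenous JMJD3 it was 16 and 18 at day 5, and 9 and 15 at day 10.

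Individual epithelial genes went either way at day 10. Cdh1, which encodes E-cadherin, had its best peak at 94.56 in WT and 32.55 in KO MEFs and at 36.58 and 31.35 at day 5 with FLAG. At day 10 it had none in WT and one of 9.69 in KO cells. Cldn3, a tight junction gene, scored 130.36 and 13.62 in MEFs, 18.78 and 24.31 at day 5, and 12.2 in WT with none in KO cells at day 10. St14, a serine protease of epithelia, went from 80.29 and 12.17 in MEFs to 8.12 in WT and none in KO cells at day 10. Dsg2, a desmosome gene, had 52.48 and 24.04 in MEFs and 8.13 and none at day 10. The day 10 peaks of Cdh1, St14 and Dsg2 lay in the weaker part of their lists, and that of Cldn3 at rank 2102 of 5131. Esrp1, a splicing regulator of epithelia, scored 28.96 and 10.78 in MEFs, 87.53 and 58.48 at day 5, and 32.71 and 32.65 at day 10. Grhl2, an epithelial transcription factor, had day 10 scores of 28.15 and 39.55.

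**Figure D5:**
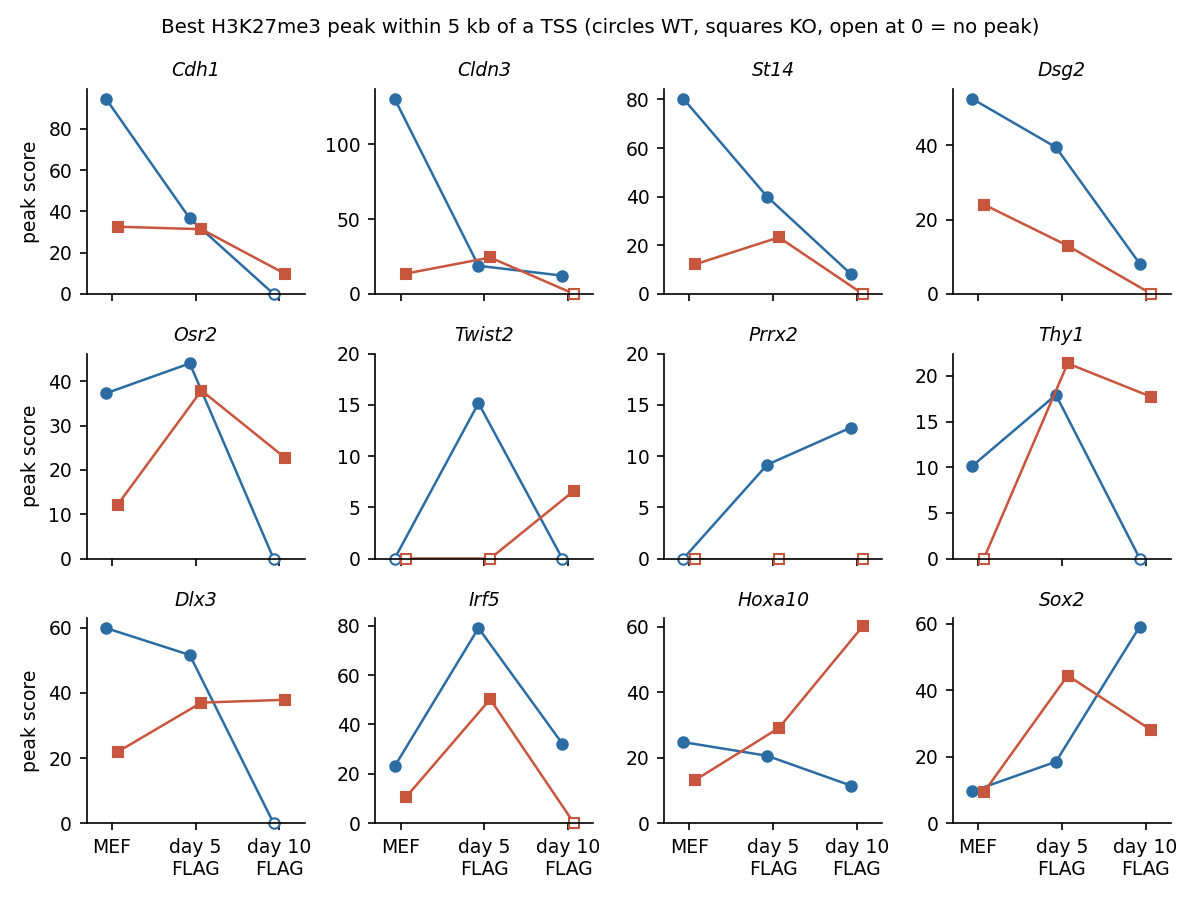
Score of the best H3K27me3 peak within 5 kb of a TSS (y axis, peak caller score on a scale of its own for each gene) for 12 genes in MEFs, at day 5 and at day 10 with FLAG (x axis). Blue circles are WT, red squares KO, and open symbols at 0 stand for no peak. Scores of different lists are not on a common scale that the sources state. Cdh1, Osr2, Thy1 and Dlx3 have a KO peak alone at day 10, and Cldn3, St14, Dsg2, Prrx2 and Irf5 a WT peak alone.

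Among 15 transcription factor genes of mesenchymal cells, 3 had a peak in both genotypes, 1 in WT alone and 5 in KO alone. The 5 were Osr1, Osr2, Snai1, Twist1 and Twist2. The WT peak was at Prrx2, a homeobox gene of limb mesenchyme, with a score of 12.79. Except for Osr2 at 22.68 (rank 887), the KO peaks were among the weaker ones. Twist1, a bHLH gene that maintains the mesenchymal state, scored 8.38 at rank 3716, Osr1 6.81, and Snai1, a repressor of E-cadherin, 6.66. Twist2 scored 6.62 at rank 5346. With both lists at 5131 peaks the number marked in KO alone was 3, without Snai1 and Twist2.

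In other libraries these mesenchymal genes had no fixed genotype. Osr2 was called in every H3K27me3 list other than day 10 WT FLAG, with day 5 scores of 44.01 in WT and 37.89 in KO cells. Twist2 had a peak of 15.17 at day 5 in WT and none in KO cells, the reverse of day 10. Snai1 had 7.87 at day 5 in WT and none in KO cells. Twist1 was called elsewhere in 1 list, that of day 10 KO cells with JMJD3, at 11.08. Of the 15 genes, 8 were marked at day 5 with FLAG in WT and 5 in KO cells, and 4 and 8 at day 10, while MEFs had 4 and 4. With the day 10 lists at equal length, 3 genes were marked in both, 1 in WT alone and 3 in KO alone.

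Fibroblast genes were mostly unmarked. Of 30 matrix and identity genes, 4 had a peak in both, 1 in WT alone (Col5a1), 2 in KO alone (Eln and Thy1) and 23 in neither. Thy1, the surface antigen whose loss marks the start of reprogramming, had a KO peak of 17.7 and none in WT cells at day 10, and day 5 scores of 17.92 in WT and 21.37 in KO cells. Of the 10 fibroblast markers, the collagen genes Col1a1, Col1a2 and Col3a1, Prrx1, Pdgfrb, Postn and S100a4 had no peak in either list. Thy1, Twist1 and Twist2 had one in KO alone.

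Pluripotency genes were divided. Of 41, 16 had a peak in both genotypes, 1 in WT alone (Dnmt3l), 3 in KO alone (Lefty1, Lefty2 and Lin28b) and 21 in neither. In the stages before, 27 were marked in WT and 21 in KO MEFs and 24 and 22 at day 5, against 17 and 19 at day 10. Nanog, Pou5f1, Zfp42, Dppa5a and Tdgf1 had no peak in either day 10 list. Esrrb, a nuclear receptor of the pluripotency network, had peaks of 55.79 in WT and 37.46 in KO cells. Sall4, a zinc-finger factor, had 10.24 and 23.4, and Lin28a, an RNA-binding protein, 45.39 and 71.74.

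The genes of the OSKM factors themselves were examined in both lists. Klf4 scored 65.97 in WT (rank 35) and 66.48 in KO cells (rank 47), against 11.08 and 7.41 in MEFs. Sox2 scored 59.17 (rank 62) and 27.97 (rank 570), against 9.57 and 9.29 in MEFs. Both peaks overlapped exons of their genes, and whether the transduced cDNAs carry the part covered was not checked. Pou5f1, the gene of OCT4, had no peak in either list, and Myc had 1 peak on its exons in WT and 0 in KO cells. Where a peak covers sequence that a vector also carries, the vector and the endogenous gene cannot be told apart.

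Lists of neuronal genes were counted next. Among 77 ion channel and receptor genes, 48 had a peak in both, 4 in WT alone, 12 in KO alone and 13 in neither. Among the 12 were Cacng2, Grm5, Htr1a, Kcna5, Kcnh7, Kcnj6, Kcnk12, Kcnq5, Scn4b and Sstr4, most of them at scores under 15. The number was 12 also with both lists at equal length. Of 44 axon guidance and cell-surface genes, 18 had a peak in both, 4 in WT alone and 4 in KO alone. Among 45 zinc-finger developmental genes 32 were marked in both, 1 in WT alone and 8 in KO alone, among them Insm1, needed for endocrine and neuronal cells, at 18.36, and Fezf1, a forebrain gene, at 15.39. Over all genes tested 2171 were marked in both, 489 in WT alone and 635 in KO alone, the same direction. The channel list had 2 genes in WT alone and 4 in KO alone at day 5 with FLAG, 2 and 5 at day 5 with JMJD3, and 4 and 17 at day 10 with JMJD3. In MEFs the numbers were 14 and 1, and all gene lists of a stage rest on the same pair of libraries.

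Signalling and silencing genes closed the survey. Of 59 ligand genes of the Wnt, Bmp, Fgf and hedgehog families, 38 had a peak in both, 4 in WT alone (Fgf2, Fgf7, Fgf23 and Wnt5a) and 6 in KO alone, among them Shh, the hedgehog ligand of limb and neural tube, at 8.19. Of 30 genes of Polycomb proteins and H3K27 demethylases, 4 had a peak in both, none in WT alone within 5 kb of a TSS, and 3 (Pcgf3, Phc2 and Phf19) in KO alone. Bmi1, a subunit of Polycomb repressive complex 1, scored 13.31 in WT and 41.58 in KO cells. Its partner Cbx8 had 61.03 and 76.2. Of 9 cell-cycle inhibitor genes, Cdkn1c and Cdkn2a, the Ink4a/Arf gene of senescence, were marked in both and 7 in neither. Cdkn2a scored 6.74 (rank 4948) in WT and 7.59 (rank 4261) in KO cells, so both peaks were among the weakest. The WT peak lay 4955 bp from a TSS, near the edge of the window. The WT and KO peaks of Cdkn2a did not overlap each other.

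Markers of other cell types that a fibroblast culture may hold were called alike in both lists. The blood genes Ptprc and Spi1 and the endothelial genes Pecam1 and Cdh5 had no peak in either list. The neural genes Pax6 and Neurog2 were marked in both, Neurog2 at 24.55 and 19.57. A call summarises the whole culture, in which fewer cells with the mark cannot be told apart from less of it per cell.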

How the data were processed

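Peak lists of 14 libraries were read, 2 of them as the members and the others, 8 for H3K27me3, 2 for KLF4 and 2 for FLAG-JMJD3, for comparison. Reads had been aligned by the authors to mm10 with bowtie2 (version 2.2.0 in the submitters' processing notes). Peaks were called in each library separately, by DFilter where H3K27me3 was precipitated and by MACS2 for the other lists. Drosophila S2 chromatin was added as a spike-in, by whose read number the authors scaled the mouse H3K27me3 reads, and whether the peak calls used scaled reads is not given in the sources used here. The deposited H3K27me3 lists hold coordinates and a score, the other deposited lists coordinates alone. Read depth was not used here, so a difference in calls can follow depth.

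Overlap needed at least 1 bp. Shares carry Wilson, differences Newcombe and ratios Poisson intervals at 95%, which cover counting error only although peaks close together depend on each other. With 1 library per group no p-value was computed. Genes came from GENCODE M21 basic, with peaks within 5 kb of a TSS, and sequences from the RefSeq GRCm38.p6 FASTA. Named genes were the members of 18 lists, the 10 best-scoring per genotype without a peak of the other genotype within 10 kb, the 10 with the best mean rank in both, and genes with the same difference in all 5 genotype pairs. Members, lists and rules were chosen with earlier results of these data known, and other genes, such as Otx2 and Col13a1, and the peaks in the body of Kdm6a were chosen after their values were seen. Alternatives covered the overlap rule, list length, score, sex chromosomes, domains and the TSS window. Scripts ran in Python 3.11.15 with scipy 1.17.1, numpy 2.4.6, matplotlib 3.10.9 and pysam 0.24.0, and overlaps were checked with bedtools 2.31.1 and tested on simulated lists. Some genes of the lists are counted but not reported here by name.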

Additional observations from a re-analysis of the deposited data

Results flagged for a closer look

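The KO to WT ratio of H3K27me3 peak numbers was 1.05 at day 10 with FLAG, against 0.591 in MEFs and 0.878 at day 5 with FLAG. The direction at day 10 was thus opposite to that of both other stages without exogenous JMJD3. These differences between pairs were not tested, as each ratio comes from a single pair of libraries.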

How the results depend on the processing

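Of 51 alternative values for 14 results, 29 stayed within the counting interval or within 1.5 times the count reported and 22 moved. A change of direction could be recorded only for the ratio of peak numbers, where none was found. The causes were not tested. The shares of WT and KO peaks that were shared, 60.6% and 57.6%, became 51.0% and 48.5% when at least 50% of a peak had to be covered, 63.1% and 60.0% within 1 kb, 67.4% and 64.4% for the better 50% of each list by score, 65.5% in both at the length of the shortest list, and 44.4% and 42.4% of base pairs. With a score of at least 20 in both lists the WT share was 62.9%, and at equal length the KO share was 59.3%. WT domains were overlapped in 61.0% when joined within 1 kb and 64.3% within 10 kb. The ratio of peak numbers was 1.10 at a score of at least 20. The better-scoring 50% against the whole other list left 148 genes in WT alone and 201 in KO alone. The share of WT-only peaks called in another KO list, 50.9%, was 63.1% for their better-scoring 50% and 54.0% within 1 kb. Among alternatives chosen after seeing the data, the island-like difference between shared and WT-only peaks was 26.0 points in the better-scoring 50%, mesenchymal genes in KO alone numbered 3 at equal length, and homeobox genes in WT alone numbered 5 within 10 kb. Leaving out the WT peaks in Kdm6a, also chosen then, could by its construction hardly move either share. No paired analysis was possible because each group held 1 library. Peaks near the calling threshold were mostly unshared, and the part of read depth in this was not tested.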
